A study of Mus musculus with 4 samples.

Results

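The genes described here are 10 genes of the mGluR6 signalling cascade of ON bipolar cells and of rod bipolar cell signalling, namely Grm6, Trpm1, Gpr179, Nyx, Lrit3, Gnao1, Gng13, Rgs11, Prkca and Cabp5. They were taken by name from RNA sequencing tables of mouse retina at postnatal day 12, in which they were 10 of 21832 genes. Each of the 10 genes had a single row and a usable value in every library. The values were FPKM, which is fragments per kilobase of exon, scaled to the mapped total of the library, so that levels can be compared between genes per unit of length.

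The study asked how rods and the remaining retinal cells differ with and without Ezh2, the methyltransferase of the Polycomb complex PRC2 that places methyl groups on histone H3. Retinas of slc:ICR background were dissociated and sorted for Cd73, a surface enzyme of rods and their precursors that Nt5e encodes, into Cd73-negative (Cd73N) and Cd73-positive (Cd73P) cells. Each fraction was taken from wild-type (WT) retina, from normal littermates, and from retina labelled Ezh2-cKO, a conditional knockout in which DKK3-Cre, active in the progenitors of the retina since early embryonic life, acts on floxed Ezh2 alleles. There was 1 library in each of the 4 groups, retinas were combined for a sort, and the number combined at this age was not given in the sources used here. Hence no difference below has a replicate check, no test between groups was possible, and intervals cover counting error within a library only.

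ON bipolar cells carry the glutamate receptor mGluR6 on their dendrites, opposite the synaptic endings of rods and cones. Glutamate released in darkness activates mGluR6 and the G protein Go, which keeps the cation channel Trpm1 shut. Light lowers glutamate, a complex of RGS proteins held by Gpr179 ends the Go signal, and the channel opens. Loss of Grm6, Trpm1, Gpr179, Nyx or Lrit3 is known to remove the ON response and to cause congenital stationary night blindness in people or mice.

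The label checks gave mixed results. The Cd73 gene Nt5e was under 1 FPKM in both Cd73N libraries (0.844 and 0.609) and reached 125 and 123 FPKM in Cd73P, so the fractions matched their labels. Ezh2 was at 14.1 FPKM in Cd73N WT and 15.9 FPKM in the Cd73N library labelled Ezh2-cKO, and at 5.38 and 3.45 FPKM in Cd73P. The Ezh2 RNA level thus does not separate the labels in Cd73N, and every direction given below for Ezh2-cKO is that of the library labelled so. A gene-level FPKM also counts exons outside the deleted part, and which exons were floxed was not given in the sources used here. Xist, the RNA of the inactive X chromosome, was higher in the Ezh2-cKO library of both fractions (52.2 against 240.4 FPKM in Cd73N, 47.0 against 95.6 FPKM in Cd73P), and the sum of 4 Y-linked genes was lower (26.8 against 0.716 FPKM and 27.9 against 0.496 FPKM). Genotype therefore cannot be told apart from the sex of the animals in these libraries. The absolute depth is unknown, and relative to Cd73N WT it was 1.17 in Cd73N Ezh2-cKO and 1.04 in Cd73P Ezh2-cKO, with Cd73P WT as deep as Cd73N WT.

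Markers of bipolar cells were present in the Cd73N libraries. The list covers bipolar cells as a class, with genes of cone bipolar types (Vsx1 and Irx6) and OFF types (Grik1), and not ON cells alone. All 15 bipolar cell markers listed were at 1 FPKM or more in both Cd73N libraries, among them the calcium-binding protein gene Scgn (501 FPKM in WT). In Cd73P, 11 of the 15 reached 1 FPKM in WT and 7 in Ezh2-cKO. Otx2, on this list, was nearly as high in Cd73P WT (328 FPKM) as in Cd73N WT (388 FPKM). In these bulk samples, fewer bipolar cells and less RNA per bipolar cell cannot be told apart, and this holds for every value that follows.

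The levels of 8 of the 10 genes were much higher in Cd73N than in Cd73P in both genotypes, whereas Lrit3 and Prkca were at like levels in both fractions. The highest levels in Cd73N WT were those of Cabp5 (327 FPKM) and Gng13 (326 FPKM), whose counting intervals overlapped, followed by Gnao1 (267 FPKM) and Grm6 (120.1 FPKM). Below them came Trpm1, Rgs11, Gpr179, Prkca, Lrit3 and Nyx, from 42.9 to 16.9 FPKM, and among these the neighbours Rgs11 and Gpr179, and Lrit3 and Nyx, could not be ordered beyond counting error. In Cd73P Ezh2-cKO the order was different, with Prkca (29.7 FPKM) and Lrit3 (28.7 FPKM) at the top with overlapping intervals, and Gpr179, Rgs11 and Nyx, from 0.715 to 0.327 FPKM, at the bottom. The deposited bounds missed the FPKM itself for 5 of the 10 genes in Cd73N WT (Grm6, Lrit3, Gnao1, Rgs11 and Cabp5), for 4 in Cd73N Ezh2-cKO (the same without Gnao1), for 2 in Cd73P WT (Lrit3 and Cabp5) and for 1 in Cd73P Ezh2-cKO (Lrit3), so intervals of these genes rest on the width of such bounds. The median over the 10 genes was 39.5, 31.1, 12.1 and 2.59 FPKM in Cd73N WT, Cd73N Ezh2-cKO, Cd73P WT and Cd73P Ezh2-cKO.

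**Figure D1:**
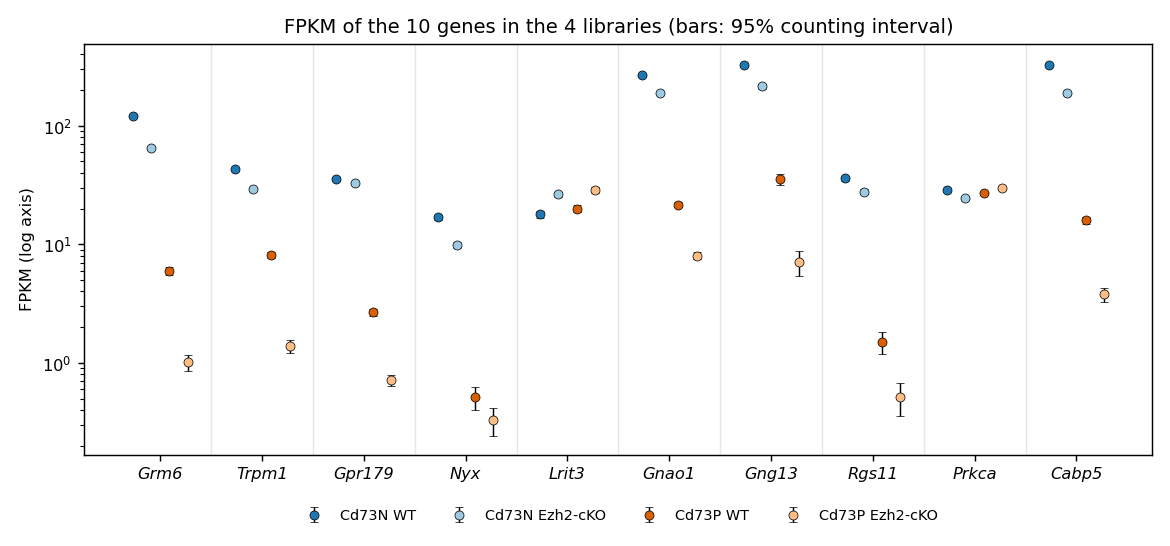
FPKM (log axis) of each of the 10 genes, 1 point per library, with bars for the 95% counting interval implied by the deposited bounds, which is smaller than the point where no bar shows. A set of 8 genes lies at 9.83 FPKM or more in both Cd73N libraries (blue) and lower in both Cd73P libraries (orange), while Lrit3 and Prkca lie between 17.9 and 29.7 FPKM in all 4.

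The receptor gene was the most unequal between genotypes among the postsynaptic membrane proteins of Cd73N. Grm6, which encodes mGluR6 (mm9, chromosome 11, 50664187 to 50679710, plus strand), was at 120.1 FPKM in Cd73N WT, 64.3 FPKM in Cd73N Ezh2-cKO, 5.91 FPKM in Cd73P WT and 1.01 FPKM in Cd73P Ezh2-cKO. Both Cd73N libraries lay above both Cd73P libraries, and within each fraction the Ezh2-cKO library was the lower. The Ezh2-cKO level was 53.5% of WT in Cd73N (95% counting interval 52.0 to 55.0) and 17.2% in Cd73P (14.4 to 20.4). Grm6 held 90.6% of the summed FPKM of the 8 metabotropic glutamate receptor genes in Cd73N WT and 80.1% in Cd73N Ezh2-cKO. The next paralogue in Cd73N was Grm5, at 8.14 FPKM in WT and 11.7 FPKM in Ezh2-cKO. In Cd73P the leading receptor was another, Grm7 (8.92 FPKM) in WT and Grm8 (7.97 FPKM) in Ezh2-cKO, and Grm6 held 32.1% and 6.85% of the family.

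Trpm1, the channel that carries the ON response (mm9, chromosome 7, 71298721 to 71414645, plus strand), was at 42.9 FPKM in Cd73N WT and 29.1 FPKM in Cd73N Ezh2-cKO, and at 8.19 and 1.39 FPKM in Cd73P. The order of the 4 libraries was that of Grm6. Its Ezh2-cKO level was 67.8% of WT in Cd73N (65.0 to 70.7) and 17.0% in Cd73P (14.8 to 19.4). The Cd73N ratio, -0.55 on the log2(FPKM + 1) scale, stayed just inside the 1.5-fold threshold used for all comparisons here, the threshold of the study. Trpm1 made up 69.7% of the FPKM of the 8 Trpm channel genes in Cd73N WT but 32.8% in Cd73N Ezh2-cKO, where Trpm3, a channel of the same family, went from 11.3 to 50.02 FPKM and ranked first. The microRNA gene Mir211 lies inside Trpm1 and was listed at 0 in all 4 libraries. As these were made from poly(A) RNA, that value does not measure the microRNA.

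Gpr179, the orphan receptor that anchors the RGS proteins at the dendrite tips (mm9, chromosome 11, 97193423 to 97213387, minus strand), was at 35.8 FPKM in Cd73N WT and 33.0 FPKM in Cd73N Ezh2-cKO. In Cd73N it was the gene of the cascade's receptor and channel complex with the smallest genotype difference (92.3%, 89.5 to 95.1), and the sign of that difference turned when libraries were scaled to equal FPKM sums (log2 ratio -0.11 as deposited, 0.034 scaled). In Cd73P it was at 2.67 FPKM in WT and 0.715 FPKM in Ezh2-cKO, 26.7% of the WT level (23.4 to 30.5).

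Nyx and Lrit3 encode leucine-rich repeat proteins, both needed for Trpm1 to stand at the dendrite tips, and they gave opposite pictures. Nyx, which encodes nyctalopin (mm9, X chromosome, 13044798 to 13066439, plus strand), was at 16.9 and 9.83 FPKM in Cd73N WT and Ezh2-cKO and at 0.512 and 0.327 FPKM in Cd73P. It was lower in Ezh2-cKO in Cd73N, at 58.0% of WT (53.6 to 62.8). In Cd73P the Ezh2-cKO level was 63.9% of WT (45.4 to 89.9). Both Cd73P values lay under 1 FPKM, and the intervals of the 2 levels overlapped. Because Nyx is X-linked and the genotypes differed in Xist, the X-linked genes with at least 10 FPKM in a library of the pair were set beside it. Their median log2 ratio in Cd73N was -0.21 over 235 genes against -0.15 over 6628 autosomal genes, and that of Nyx was -0.73.

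Lrit3 (mm9, chromosome 3, 129491209 to 129506948, minus strand) was at 17.9 FPKM in Cd73N WT, 26.4 FPKM in Cd73N Ezh2-cKO, 19.9 FPKM in Cd73P WT and 28.7 FPKM in Cd73P Ezh2-cKO. It was the only one of the 10 genes that was higher in Ezh2-cKO in both fractions, at 148% of WT in Cd73N (135 to 163) and 144% in Cd73P (131 to 158), each just short of 1.5-fold on the log2(FPKM + 1) scale. Cd73P stood at 112% of Cd73N in WT (100.2 to 124) and at 109% in Ezh2-cKO (100.4 to 118). Lrit3 thus followed Grm6, Trpm1, Gpr179 and Nyx neither between fractions nor between genotypes, and these libraries do not show which cells expressed it. Its deposited bounds missed its own FPKM in all 4 libraries.

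The G protein subunits were among the most abundant of the 10 genes. Gnao1, the alpha subunit of Go (mm9, chromosome 8, 96334738 to 96493288, plus strand), was at 267 and 188.9 FPKM in Cd73N WT and Ezh2-cKO and at 21.5 and 8.003 FPKM in Cd73P. The Ezh2-cKO level was 70.8% of WT in Cd73N (69.4 to 72.3), inside the threshold, and 37.2% in Cd73P (34.2 to 40.4), past it. Gnao1 held 36.6% of the FPKM of 7 alpha subunit genes of the i, o, z and transducin kinds in Cd73N WT and 24.2% in Ezh2-cKO, second in both to Gnat2, the cone transducin gene. In Cd73P it held 1.02% and 0.158%, where Gnat1, the rod transducin gene, was at 2016 and 4999 FPKM. Go is also used in other neurons, so Gnao1 is not a marker of ON bipolar cells alone.

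Gng13, a gamma subunit found with Go in ON bipolar cells (mm9, chromosome 17, 25854117 to 25856047, plus strand), was at 326 FPKM in Cd73N WT, 216 FPKM in Cd73N Ezh2-cKO, 35.3 FPKM in Cd73P WT and 7.06 FPKM in Cd73P Ezh2-cKO. Its Cd73N ratio (66.1%, 62.0 to 70.5) passed the threshold narrowly, and its Cd73P ratio (20.0%, 15.4 to 25.9) was the largest difference between genotypes among the 10 genes on the log2(FPKM + 1) scale (-2.17). It was second among 12 gamma subunit genes in Cd73N WT, after the cone gene Gngt2 (1103 FPKM). Its last 73 bases overlap Chtf18, which was at 3.44 FPKM or less in all 4 libraries.

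Rgs11, a GTPase-activating protein that ends the Go signal (mm9, chromosome 17, 26339907 to 26348269, plus strand), lies 483.86 kb from Gng13. It was at 36.01 and 27.7 FPKM in Cd73N WT and Ezh2-cKO and at 1.51 and 0.514 FPKM in Cd73P, again with both Cd73N libraries above both Cd73P libraries. The Ezh2-cKO level was 76.9% of WT in Cd73N (71.5 to 82.6) and 34.0% in Cd73P (23.3 to 49.7). The Cd73P values rest on about 83 and 39 fragments. Rgs11 and Gpr179, its anchor, were at nearly equal FPKM in Cd73N WT (ratio 1.01) and at a ratio of 0.838 in Cd73N Ezh2-cKO.

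Cabp5 and Prkca are the remaining genes, both of them markers of bipolar cells. Cabp5, a calcium-binding protein of rod bipolar and some cone bipolar cells (mm9, chromosome 7, 13983504 to 13994227, plus strand), was at 327 FPKM in Cd73N WT, 187 FPKM in Cd73N Ezh2-cKO, 15.9 FPKM in Cd73P WT and 3.78 FPKM in Cd73P Ezh2-cKO. Its Ezh2-cKO level was 57.4% of WT in Cd73N (55.8 to 59.0) and 23.7% in Cd73P (20.1 to 28.0). Cabp5 was at 2.72 times the FPKM of Grm6 in Cd73N WT, 2.92 times in Cd73N Ezh2-cKO, 2.70 times in Cd73P WT and 3.73 times in Cd73P Ezh2-cKO, while Grm6 itself ran from 120.1 to 1.01 FPKM across them. Among its family, Cabp1 (89.6 and 40.1 FPKM) and Cabp2 (42.9 and 19.3 FPKM) were also lower in Cd73N Ezh2-cKO, whereas Cabp4 (30.1 and 31.4 FPKM), which acts at photoreceptor endings, was within 1.5-fold.

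Prkca, which encodes protein kinase C alpha, the standard antibody marker of rod bipolar cells (mm9, chromosome 11, 107794701 to 108205202, minus strand), was at 28.5 FPKM in Cd73N WT, 24.6 FPKM in Cd73N Ezh2-cKO, 26.8 FPKM in Cd73P WT and 29.7 FPKM in Cd73P Ezh2-cKO. All 4 values lay within 1.5-fold of each other. The Ezh2-cKO level was 86.4% of WT in Cd73N (83.5 to 89.5) and 111% in Cd73P (107 to 114). The ratio between fractions in WT was 94.3% (91.0 to 97.7), and its sign turned on scaling (log2 ratio -0.082 as deposited, 0.32 at equal FPKM sums). Prkca was the highest of 7 protein kinase C genes in Cd73P (70.5% of their FPKM in WT, 77.6% in Ezh2-cKO), while Prkce (33.0 FPKM) was above it in Cd73N WT. As RNA, it did not separate the fraction that held the bipolar markers from the fraction that held the rods.

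The sequence before the start was set beside the expression for the genes on which the contrast turns, namely Grm6, Trpm1 and Cabp5, lower in both Cd73P and Ezh2-cKO, and Lrit3 and Prkca, which were not. The 250 bases before the RefSeq start follow, 5′ to 3′ on the strand of the gene (build GRCm38.p6, not the build of the FPKM tables). They are chr11:50850435-50850684 (plus) for Grm6, chr7:64153585-64153834 (plus) for Trpm1, chr7:13397905-13398154 (plus) for Cabp5, chr3:129804137-129804386 (minus) for Lrit3 and chr11:108343889-108344138 (minus) for Prkca. Capitals mark the letters TAATCC, or GGATTA where they lie on the opposite strand, the core of the motif of Otx2 and Crx.
Grm6: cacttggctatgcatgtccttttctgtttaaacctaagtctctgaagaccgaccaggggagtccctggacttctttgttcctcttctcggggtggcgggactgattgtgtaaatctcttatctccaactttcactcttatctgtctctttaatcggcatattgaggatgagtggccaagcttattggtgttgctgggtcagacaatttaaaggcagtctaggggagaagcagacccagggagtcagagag
Trpm1: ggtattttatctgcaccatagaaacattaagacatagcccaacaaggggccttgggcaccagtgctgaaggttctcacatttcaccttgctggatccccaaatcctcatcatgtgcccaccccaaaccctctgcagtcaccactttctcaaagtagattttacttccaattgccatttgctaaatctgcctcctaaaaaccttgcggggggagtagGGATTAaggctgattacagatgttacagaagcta
Cabp5: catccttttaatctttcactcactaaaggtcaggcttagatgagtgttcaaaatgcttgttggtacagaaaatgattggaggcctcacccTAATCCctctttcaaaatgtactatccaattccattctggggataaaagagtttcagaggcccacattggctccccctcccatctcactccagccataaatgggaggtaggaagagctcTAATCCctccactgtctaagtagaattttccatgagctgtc
Lrit3: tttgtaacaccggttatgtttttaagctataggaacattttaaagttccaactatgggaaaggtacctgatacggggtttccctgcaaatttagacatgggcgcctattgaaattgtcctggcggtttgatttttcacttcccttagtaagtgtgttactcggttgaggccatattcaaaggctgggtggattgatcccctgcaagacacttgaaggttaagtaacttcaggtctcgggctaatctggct
Prkca: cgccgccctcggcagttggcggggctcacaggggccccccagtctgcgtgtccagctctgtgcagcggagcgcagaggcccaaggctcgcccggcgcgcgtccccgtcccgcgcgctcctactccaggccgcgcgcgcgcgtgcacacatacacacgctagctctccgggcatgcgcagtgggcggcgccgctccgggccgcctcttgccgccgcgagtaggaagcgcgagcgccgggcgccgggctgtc

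Windows from 250 bases before to 50 after the start were given for 9 of the 10 genes (11 windows, as Trpm1 and Gng13 each had 2 starts), and there was no window for Rgs11. TAATCC was found on either strand in the windows of 2 of the 9 genes, in Cabp5 at positions -160 and -41 counted from the start and in 1 of the windows of Trpm1 at position -34 on the opposite strand. Of all 32851 windows, 7.06% held it. CATATG, an E-box of the Bhlhe22 and Bhlhe23 kind, was in none of these 11 windows and in 3.91% of all windows. The 250 bases of Prkca had 76.8% G and C and those of Lrit3 43.2%. Beside them, Grm6 had 47.6%, Cabp5 44.0%, and Trpm1 46.0% in the printed window and 57.2% in the other. Among the genes printed, Lrit3 and Prkca, alike in expression, thus differed most in base composition. Over whole windows, genes higher in Cd73N ran from 44.7% (Cabp5) to 76.3% (Gnao1), beside 46.3% for Lrit3 and 75.3% for Prkca. A match is a run of letters and not a shown binding site.

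In Cd73N, 4 of the 10 genes (Grm6, Cabp5, Nyx and Gng13) had lower values in the library labelled Ezh2-cKO, by at least 1.5-fold on the log2(FPKM + 1) scale and none had a higher value. Of all 21706 genes compared, 1.71% were lower and 7.18% higher. With genes of at least 10 FPKM in a library of the pair, a background closer to these 10 genes, 3.64% were lower and 8.06% higher. The median log2 ratio of the 10 genes was -0.52, against 0 over all genes and -0.16 over those of at least 10 FPKM. The ratios of 9 genes were negative, from -0.89 (Grm6) to -0.11 (Gpr179), and Lrit3 was the exception at 0.54. When libraries were scaled to equal FPKM sums, a step of 0.15 on the log2 scale of FPKM before the pseudocount, Grm6 and Cabp5 stayed past the threshold, Nyx and Gng13 did not, and Lrit3 passed it upward, and of all genes 0.862% were then lower and 8.75% higher.

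In Cd73P, 7 of the 10 genes (Gng13, Trpm1, Cabp5, Grm6, Gnao1, Gpr179 and Rgs11) had lower values in the library labelled Ezh2-cKO by the same measure and none was higher, beside 2.39% of all genes lower and 2.26% higher. The median log2 ratio was -1.21, against 0 over all genes and -0.046 over genes of at least 10 FPKM. The values ran from -2.17 (Gng13) to 0.51 (Lrit3). These are ratios of low levels, since Grm6, Trpm1, Gpr179, Nyx and Rgs11 were at 1.39 FPKM or less in Cd73P Ezh2-cKO, and the pseudocount understates them. In these 7 genes, picked by their Cd73P ratio, the log2 ratio was further below 0 in Cd73P than in Cd73N. On this scale the Cd73P minus Cd73N difference was -1.58 for Gng13, -1.40 for Trpm1 and, at the smallest, -0.36 for Rgs11. In the genes not picked it was 0.54 for Nyx, 0.34 for Prkca and -0.034 for Lrit3. The pseudocount shapes these differences for low genes, and so their order. With no pseudocount, Nyx in Ezh2-cKO was at 58.0% of WT in Cd73N and 63.9% in Cd73P. Rgs11 was at 76.9% and 34.0%, and Gnao1 at 70.8% and 37.2%. Picking by the Cd73P ratio favours such a difference, and no test of it was possible with 1 library per group.

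**Figure D2:**
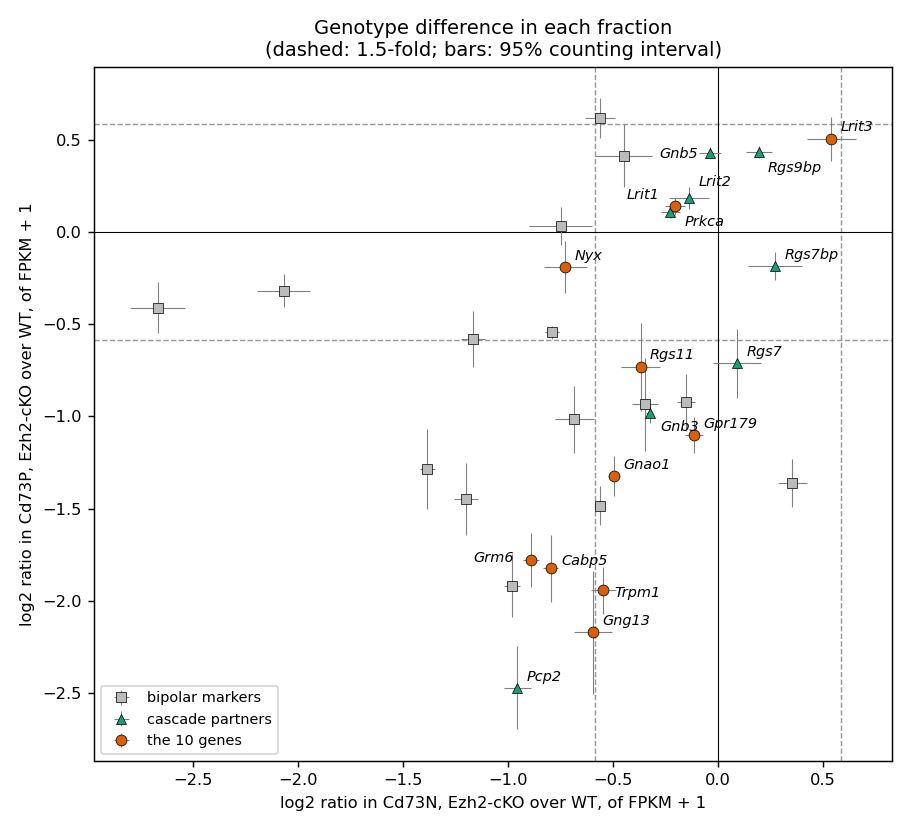
Log2 ratio of FPKM + 1 of Ezh2-cKO over WT in Cd73N (horizontal) and in Cd73P (vertical) for the 10 genes (orange), 8 partners of the cascade (green) and 15 bipolar markers (grey), with 95% counting intervals and dashed lines at 1.5-fold. In all, 7 of the 10 genes lie below the lower dashed line in Cd73P, while Lrit3 and Prkca lie above 0 there.

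The same libraries gave the difference between fractions. In WT, 8 of the 10 genes were lower in Cd73P than in Cd73N by at least 1.5-fold and none was higher, and in Ezh2-cKO the counts were again 8 and 0. Of all genes, 27.9% were lower and 9.08% higher in WT, and 29.1% were lower and 8.4% higher in Ezh2-cKO. Among genes of at least 10 FPKM in a library of the pair, 46.3% and 42.1% were lower. The median log2 ratio of the 10 genes was -3.45 in WT and -4.28 in Ezh2-cKO, against -0.49 and -0.40 over genes of at least 10 FPKM. Scaling to equal FPKM sums, by 0.42 in WT and 0.21 in Ezh2-cKO on the log2 scale of FPKM before the pseudocount, gave medians of -3.06 and -4.15 and the same counts of 8. Of all genes, 19.9% were then lower and 14.8% higher in WT, and 25.1% were lower and 11.1% higher in Ezh2-cKO.

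In WT, the Cd73P level of the 8 genes was between 3.02% (Nyx, 2.42 to 3.79) and 19.1% (Trpm1, 17.9 to 20.3) of the Cd73N level. Trpm1 had the highest share of the 8, next to Gng13 at 10.8% (9.61 to 12.2) and Gnao1 at 8.07% (7.69 to 8.46). In Ezh2-cKO the shares ran from 1.58% (Grm6, 1.35 to 1.85) to 4.78% (Trpm1, 4.21 to 5.43). They were below the WT share in 7 of the 8 genes, with intervals that did not overlap, and for Nyx the intervals overlapped (3.33%, 2.54 to 4.36). The same shares of the marker lists were, as medians over markers of at least 1 FPKM in Cd73N, 3.52% in WT and 1.83% in Ezh2-cKO for bipolar cells, 5.83% and 2.07% for cones, and 6.71% and 3.74% for Müller glia. All 3 lists thus had lower shares in Ezh2-cKO. For Müller glia the summed FPKM was nonetheless higher in Ezh2-cKO in both fractions (1187 and 5731 in Cd73N, 253 and 423 in Cd73P, WT first). Amacrine markers were at 22.1% and 12.3%, ganglion cell markers at 19.8% and 6.14%, and microglia markers at 20.4% and 19.6%. Rod markers were higher in Ezh2-cKO, at 5117% and 14660%. How far such shifts moved the values of the 10 genes was not tested.

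**Figure D3:**
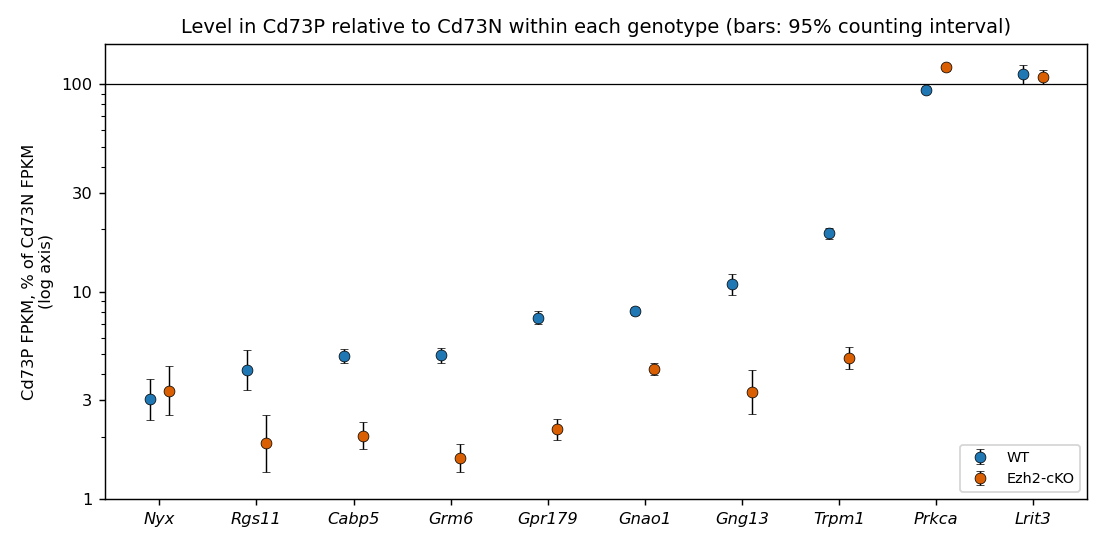
Cd73P level as a percent of the Cd73N level (log axis) in WT (blue) and Ezh2-cKO (orange) for each of the 10 genes, ordered by the WT value, with 95% counting intervals. A set of 8 genes lies between 1.58% and 19.1%, with the Ezh2-cKO point below the WT point in all of them except Nyx, and Prkca and Lrit3 lie between 94.3% and 121%.

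Other genes of the pathway were taken from a list of 8 partners of the cascade. In Cd73N, 1 of the 8 was lower in Ezh2-cKO by at least 1.5-fold and none was higher (median log2 ratio -0.088), and in Cd73P 3 were lower and none higher (median -0.037). The gene that was lower in both was Pcp2, a modulator of Go found in bipolar cells, at 653 and 336 FPKM in Cd73N and 82.9 and 14.1 FPKM in Cd73P, WT first. Gnb3, the beta subunit of the ON bipolar Go protein, was at 913 and 729 FPKM in Cd73N and at 166 and 83.6 FPKM in Cd73P, where it passed the threshold. Gnb3 is also the beta subunit of cone transducin.

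The RGS partners split by fraction. Rgs7, which shares its role with Rgs11, was at 14.2 and 15.2 FPKM in Cd73N WT and Ezh2-cKO and at 1.37 and 0.448 FPKM in Cd73P. In Cd73N the ratio of Rgs11 to Rgs7 was 2.53 in WT and 1.81 in Ezh2-cKO. Gnb5, the beta subunit that both RGS proteins need, was at 145.9 and 141.9 FPKM in Cd73N and higher in Cd73P, at 439 and 593 FPKM, like Rgs9bp, the anchor of the RGS complex of photoreceptors (21.2 and 24.5 FPKM in Cd73N, 81.3 and 110.3 FPKM in Cd73P). Rgs7bp was at 2.73 FPKM or less in all 4 libraries. Lrit1 and Lrit2, paralogues of Lrit3, were likewise higher in Cd73P (Lrit1 at 63.5 and 54.1 FPKM in Cd73N and 112 and 121 FPKM in Cd73P, Lrit2 at 20.1, 18.2, 55.5 and 63.2 FPKM in the same order).

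The photoreceptor side of the synapse was represented by 7 genes. Elfn1, the adhesion protein of rod endings that binds mGluR6 across the synapse, was at 5.94 FPKM in Cd73N WT, 12.1 FPKM in Cd73N Ezh2-cKO, 28.7 FPKM in Cd73P WT and 45.4 FPKM in Cd73P Ezh2-cKO, past 1.5-fold upward in both fractions. Of the 7 genes, 1 was lower (Cacna2d4, 69.0 and 43.1 FPKM) and 2 higher (Elfn1 and Dag1, the latter 21.8 and 33.8 FPKM) in Cd73N Ezh2-cKO, and in Cd73P 0 were lower and 2 higher (Elfn1, and Cabp4 at 94.8 and 150.7 FPKM). Their median log2 ratios were 0.059 and 0.052. Egflam, which encodes the dystroglycan ligand pikachurin, Cacna1f, the calcium channel of photoreceptor endings, and Slc17a7, the vesicular glutamate transporter, were within 1.5-fold between genotypes in both fractions.

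Markers of other cells moved with genotype as well, and their part in the results above was not tested. Of the 15 bipolar markers, 9 were lower and 0 higher in Cd73N Ezh2-cKO (median log2 ratio -0.75), and their summed FPKM was 2168 in WT and 1212 in Ezh2-cKO. Among these were Isl1, a transcription factor of ON bipolar cells (217 and 109 FPKM), Bhlhe23, a factor rod bipolar cells need (98.7 and 42.3 FPKM), and Vsx1 and Irx6, factors of cone bipolar types (85.5 and 37.5 FPKM, 34.7 and 4.61 FPKM). Grik1, a glutamate receptor gene of OFF bipolar types, was within 1.5-fold in Cd73N (99.0 and 89.1 FPKM). In Cd73P, 8 of the 15 were lower and 1 higher (median -0.92). Car8 was higher in Cd73N Ezh2-cKO (16.4 and 21.2 FPKM) but within 1.5-fold.

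All 10 Müller glia markers were higher in Cd73N Ezh2-cKO (median log2 ratio 2.11, summed FPKM 1187 and 5731), the most abundant in Ezh2-cKO being Glul, the glutamine synthetase gene, at 257 and 1760 FPKM, and 7 of the 10 were higher in Cd73P (summed FPKM 253 and 423). Of the 8 cone markers, 3 were higher and 0 lower in Cd73N (summed FPKM 2706 and 4078), and 6 were lower and 0 higher in Cd73P (166 and 86.9). Of the 10 rod markers, 6 were lower in Cd73N and none was higher (1382 and 1374 summed FPKM), and in Cd73P, where 9 had a usable value, 2 were higher and none lower (15245 and 21290). Microglia markers were higher in 3 of 5 in Cd73N (62.4 and 92.7). In Cd73N, 2 of 8 amacrine markers were higher and none lower (summed FPKM 33.3 and 79.8), and most of the sum was Pax6, a transcription factor that Müller glia also express, at 20.4 and 63.5 FPKM. Of the 8 retinal ganglion cell markers, 2 were higher and 1 lower (15.7 and 42.0), with most of the sum in Ezh2-cKO from Thy1, at 6.52 and 30.3 FPKM. None of the 4 horizontal cell markers passed the threshold (1.27 and 1.89). The other higher amacrine marker was Gad1, at 0.798 and 1.74 FPKM. Beside Thy1, the higher ganglion cell marker was Slc17a6, at 0.771 and 2.01 FPKM, and the lower one was Sncg, at 2.04 and 0.682 FPKM. Pou4f2 and Lhx1 were at 0.153 and 0.0709 FPKM or less in Cd73N. In Cd73P, 1 amacrine marker was lower, and no ganglion or horizontal cell marker passed the threshold. FPKM are relative to the total of a library, and RNA per cell was not measured.

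**Figure D4:**
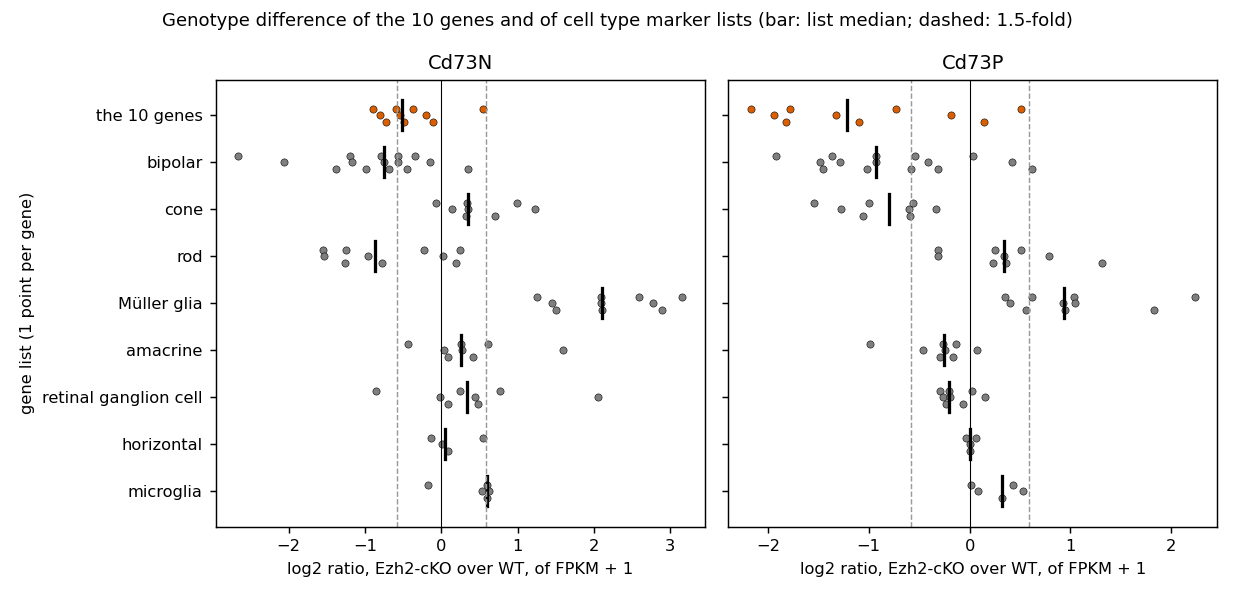
Log2 ratio of FPKM + 1 of Ezh2-cKO over WT in Cd73N (left) and Cd73P (right), 1 point per gene, staggered for legibility, for the 10 genes (orange) and lists of cell type markers (grey), with a bar at the median and dashed lines at 1.5-fold. The 10 genes (medians -0.52 and -1.21) lie on the side of the bipolar markers (-0.75 and -0.92) in both fractions. Müller glia markers lie to the right in both, and cone markers lie to the right in Cd73N and to the left in Cd73P. Rod markers lie to the left in Cd73N as well (median -0.87) and to the right in Cd73P (0.34).

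The genes whose centred log2(FPKM + 1) profile over the 4 libraries lay nearest to the mean profile of the 10 genes, among 7600 genes with at least 10 FPKM in a library, were Pgc (Euclidean distance 0.14), Rgs8 (0.16), Spock3 (0.18), Bhlhe22 (0.19) and Nell2 (0.21). Rgs8 was at 22.0, 15.0, 2.06 and 0.366 FPKM in Cd73N WT, Cd73N Ezh2-cKO, Cd73P WT and Cd73P Ezh2-cKO. This mean includes Lrit3 and Prkca, so that no single gene of the 10 lay closer to it than Nyx and Trpm1 (0.67 each). With profiles set against single genes, a choice made after the values were seen, the nearest to Grm6 were Isl1 (0.14) and Cabp5 (0.22), both bipolar genes. Those nearest to Prkca, Coq10a (0.032) and Rfwd3 (0.042), were genes of no bipolar marker list and were flat over the 4 libraries. With only 4 libraries, likeness of profile is a description.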

How the data were processed

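Poly(A) RNA of retinal cells sorted for Cd73 on postnatal day 12 was sequenced in 4 libraries (Cd73N WT, Cd73N Ezh2-cKO, Cd73P WT, Cd73P Ezh2-cKO), grouped by the sample titles, with 1 library per group. The authors mapped reads to mm9 with TopHat2 2.0.8b and computed the deposited FPKM, with bounds and a status, with Cufflinks 2.1.1 on RefSeq genes. FPKM above the upper bound of its own row was found in 2673 to 3600 of 23021 rows per library. FPKM were not scaled further between libraries.

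Where several rows had the same symbol (714 rows, 251 symbols) their FPKM were added up, and small RNAs (726 symbols) were not used, leaving 21832 genes. Comparisons used only genes with status OK in both libraries. Libraries were compared as log2(FPKM + 1) with Python 3.11.15 and pandas 2.3.3, and a gene was counted as lower or higher at 1.5-fold. Percentages are ratios of FPKM with no pseudocount. With 1 library per group no p-value was computed. Counting error was taken from the width of the deposited bounds, as 4 standard errors, for intervals of 95% (1.96 standard errors), which say nothing about animals or sorts. Relative depth came from the same widths over 6275 genes. The scripts were tested on simulated data.

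The 10 genes and all lists were chosen with earlier results of these data known. The genes named are these 10, the partners of the cascade and the photoreceptor-side partners, Ezh2 and Nt5e, examples of lists and families (some are not reported here), and the 5 nearest profiles. Xist, Y-linked genes, genes overlapping the 10 and neighbours of single genes were added after values were seen. Coordinates of genes are those of the tables with 1 added to the start (mm9), and promoters came from RefSeq (GRCm38.p6).

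Alternatives were pseudocounts of 0.1 and 5, no pseudocount, filters at 1 and 10 FPKM, scaling by median ratio or FPKM sum, a 2-fold threshold, deposited bounds that do not overlap, rows of every status, symbols on a single row, and lists without Gnao1 and Prkca. The midpoint of the deposited bounds and lists without Lrit3 and Prkca were added after seeing the data.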

Additional observations from a re-analysis of the deposited data

Results flagged for a closer look

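With 1 library per group none of the differences between fractions given here was tested. They were listed because the Ezh2-cKO over WT ratio had opposite signs in Cd73P and Cd73N, and each value is the log2 ratio in Cd73P minus that in Cd73N. Of the 10 genes of the cascade, Prkca was the only one listed, with a difference of 0.34 (below WT in Cd73N, above WT in Cd73P), and the same 0.34 is the difference of its Cd73P over Cd73N ratio between Ezh2-cKO and WT. Among the cascade partners, Gnb5, the beta subunit of the RGS complex, differed by 0.47, Lrit1 by 0.34 and Lrit2 by 0.32. Rgs7, the RGS protein that shares its role with Rgs11, differed by -0.80 and its membrane anchor Rgs7bp by -0.46, both with a Cd73P level under 1 FPKM in Ezh2-cKO. On the photoreceptor side, the glutamate transporter gene Slc17a7 differed by 0.84, the dystroglycan gene Dag1 by -0.72 and the pikachurin gene Egflam by -0.32. The signs in Cd73N of Gnb5 and Lrit2 turned when libraries were scaled to equal FPKM sums, where both were above WT in each fraction.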

How the results depend on the processing

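No paired analysis was possible because there was 1 library per group, and no library could be left out. The genes past the 1.5-fold threshold kept their sign under every alternative that gave them a value, which for some low genes in Cd73P was not all. These were 4 of 4 and 7 of 7 between genotypes in Cd73N and Cd73P, and 8 of 8 between fractions in each genotype. Most alternatives could not have given another outcome. Pseudocounts, filters and row choices cannot turn a sign, and the largest scaling step (0.42, between fractions in WT) was below the threshold. Only the midpoint of the deposited bounds could have turned one. In Cd73N, the count of lower genes was 2 with scaling by the FPKM sum and 0 at a 2-fold threshold. Of all genes, 0.862% and 0.327% were lower under these settings. Under median scaling and under sum scaling 1 gene, Lrit3, was higher, beside 7.74% and 8.75% of all genes. The Cd73N median of the 10 genes was -0.44 under median scaling, -0.37 under sum scaling, and -0.57 without Gnao1 and Prkca as without Lrit3 and Prkca. In Cd73P, 3 of the 5 genes left by a filter of 10 FPKM were lower, beside 2.08% of all genes left by it. The Cd73P median was -1.59 and -0.64 with pseudocounts of 0.1 and 5, -2.08 with none, -1.32 with filters at 1 and at 10 FPKM, -1.44 without Gnao1 and Prkca, and -1.55 without Lrit3 and Prkca. Between fractions, the WT median was -3.66, -2.53 and -3.63 with pseudocounts of 0.1, 5 and none, -3.16 and -3.06 under median and sum scaling, and -3.57 without Lrit3 and Prkca. The Ezh2-cKO median was -4.73, -2.65 and -4.56 with those pseudocounts and -4.11 and -4.15 under those scalings, and with no pseudocount 5 of 7 genes with a value were lower. The pseudocount and the low Cd73P levels (39 fragments for Rgs11 in Ezh2-cKO) limit how large a Cd73P difference can be read.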

Other observations

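Families of the cascade's components held other differences. Of the G protein gamma subunit genes in Cd73N, 4 of 12 were higher in the library labelled Ezh2-cKO and 2 were lower (Gng13, and the neuronal subunit Gng3 at 118.5 and 71.7 FPKM), the higher ones being Gng2 (10.8 and 18.3 FPKM), Gng5 (32.5 and 56.4 FPKM), Gng7 (3.996 and 8.09 FPKM) and Gng12 (4.11 and 8.93 FPKM). Gnai2, an inhibitory alpha subunit, was at 78.4 and 148.8 FPKM in Cd73N. Rgs6, the fourth gene of the R7 family, was at 1.42 and 3.77 FPKM, while Rgs9, the form of photoreceptors, was at 270.0 and 362 FPKM in Cd73P. Of the protein kinase C genes, Prkcd (1.39 and 5.02 FPKM), Prkch (1.07 and 5.19 FPKM) and Prkcq (0.819 and 2.11 FPKM) were higher in Cd73N Ezh2-cKO, and Prkcb (23.1 and 18.0 FPKM) was within 1.5-fold.

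Relative to Grm6, Gpr179, Trpm1, Nyx and Lrit3 did not keep 1 ratio over the 4 libraries. Gpr179 was at 0.298 times the FPKM of Grm6 in Cd73N WT and 0.514 times in Cd73N Ezh2-cKO, Trpm1 at 0.357 and 0.452 times, and Nyx at 0.141 and 0.153 times. In Cd73P, Trpm1 was at 1.39 times Grm6 in WT and 1.37 times in Ezh2-cKO, and Lrit3 at 3.37 and 28.3 times.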
